A study of Mus musculus with 6 samples.

Results

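The 49 genes described here encode ATP-dependent chromatin remodellers of the SWI/SNF, ISWI, CHD, NuRD and INO80 families. They were listed by symbol and taken from the loci of the deposited tables that carry the symbol and overlap the gene. The tables hold 49352 gene names with a value, of which 20633 are protein-coding. All 49 were found, and 55 loci carry their symbols, of which a second locus named Chd1 does not overlap that gene and was left out. Values came from mouse embryonic stem cells derived from the blastocyst, of strain C57BL/6J and genotype Mll1fl/fl; Cre-ER TM, grown with leukemia inhibitory factor on fibroblast feeder cells. The floxed Mll1 alleles and the Cre transgene are shared by every group, and tamoxifen is named in no label used here. The 3 groups were untreated cells, cells given 1 µM VD3 (the hormonally active form of vitamin D3) for 5 days, and cells that received 100 µM MM-401 besides 1 µM VD3 over 5 days. MM-401 blocks the methyltransferase MLL1, and the third pool is called the combined pool here. No time in culture is given for the untreated cells, and no group listed here received MM-401 by itself. Each group had 2 libraries labelled as biological duplicates, and the deposited tables hold 1 pooled column per group, so no value below has a replicate error and no test was possible. The VD3 column is named as its group is. For the untreated and combined pools the column name fits its group only by the way it begins, and no label accounts for the remainder. Were either name to mean something else, each comparison that uses that column would change.

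Remodellers use the energy of ATP to slide, eject or exchange nucleosomes, and each family is built around an ATPase of the SNF2 type. SWI/SNF complexes open chromatin, ISWI complexes space nucleosomes, NuRD joins a CHD ATPase to histone deacetylases, and the INO80 family exchanges histone variants such as H2A.Z. In embryonic stem cells a SWI/SNF complex built on Smarca4 and the NuRD complex built on Chd4 are known regulators of self-renewal and of the exit from pluripotency.

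Transcripts of most remodellers were abundant in all pools, and 12 of the 15 paralog ratios with a value in every pool moved by under 2-fold over the 3 pools by FPKM, and 13 by count. Smarca1, an ISWI ATPase, was lower in both treated pools than in the untreated pool by the criterion used, and no member was higher by it. Over all genes 4.22% were lower and 0.926% higher with VD3, and 2.68% lower and 4.26% higher in the combined pool. Adjusted for transcript length and GC content, Smarca1 was short of 2-fold, at -0.32 and -0.59 on the log2 scale. Before adjustment for transcript length and GC content, 16 of the 17 ATPases lay below the median gene in each treated pool against untreated. After it, 14 of 17 with VD3 and 10 of 17 in the combined pool lay below 0, beside 15 and 18 of the 32 other subunits. The median ATPase transcript is longer than the median for the other subunits. The 4 ATPase genes whose counts were lower with intervals of count apart in the VD3 pool and that have an entry in the RefSeq promoter table are shown first by their promoters. By that count rule, at 2-fold, 7.01% of all genes were lower. By FPKM, Smarca1 alone among these genes had intervals apart. Each sequence is the 250 bases before the RefSeq start, on the gene's own strand, from RefSeq on GRCm38.p6, with every CG dinucleotide in capitals. For Smarca1 and Chd9 the RefSeq start lies 361 and 483 bases inside the gene as GENCODE vM21 places it. Their windows thus fall within that gene and not before its GENCODE start. Smarca1 lies at chrX:47892614-47892863 on the minus strand, Smarca5 at chr8:80739460-80739709 on the minus strand, Smarcad1 at chr6:65042341-65042590 on the plus strand and Chd9 at chr8:90828585-90828834 on the plus strand.
Smarca1: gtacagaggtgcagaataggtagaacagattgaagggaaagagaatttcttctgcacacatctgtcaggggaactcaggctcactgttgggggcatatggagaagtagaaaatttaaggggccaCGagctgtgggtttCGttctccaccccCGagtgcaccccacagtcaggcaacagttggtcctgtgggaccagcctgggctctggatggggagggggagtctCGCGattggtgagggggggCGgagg
Smarca5: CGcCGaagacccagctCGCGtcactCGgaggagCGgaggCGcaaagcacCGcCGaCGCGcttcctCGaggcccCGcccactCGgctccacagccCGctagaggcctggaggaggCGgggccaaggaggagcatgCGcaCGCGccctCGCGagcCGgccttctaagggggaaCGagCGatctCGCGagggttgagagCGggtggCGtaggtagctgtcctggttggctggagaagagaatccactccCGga
Smarcad1: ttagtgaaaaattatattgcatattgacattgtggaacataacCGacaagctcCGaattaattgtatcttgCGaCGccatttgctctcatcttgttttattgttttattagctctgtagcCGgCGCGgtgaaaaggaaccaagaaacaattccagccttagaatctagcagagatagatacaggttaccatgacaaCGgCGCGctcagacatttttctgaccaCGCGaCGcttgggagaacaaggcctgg
Chd9: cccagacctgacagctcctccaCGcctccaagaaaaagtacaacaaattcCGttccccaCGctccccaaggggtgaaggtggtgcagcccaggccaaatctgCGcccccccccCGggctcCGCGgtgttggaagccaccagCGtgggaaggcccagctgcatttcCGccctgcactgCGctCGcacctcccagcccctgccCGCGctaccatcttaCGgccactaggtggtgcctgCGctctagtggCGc

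The 4 promoters differ widely in composition. Smarca1 holds 6 CG dinucleotides, Smarcad1 13, Chd9 16 and Smarca5 29. The RefSeq table held 39 of the 49 members and had no entry matched for Arid2, Baz1a, Chd1, Chd2, Chd3, Chd7, Hdac1, Mbd2, Mta3 and Smarce1. Over the 39 matched promoters the median was 21 CG dinucleotides and a GC content of 64.8%, beside 10 and 55.8% over 16522 promoters of protein-coding genes. Each member promoter was the one nearest the GENCODE gene start, whereas the wider set took the first per symbol by gene identifier and position. These comparisons, and those of the words below, are thus between sets not selected alike. Among members the RefSeq start lay furthest from the GENCODE start for Smarcd3 and Smarcc1, at 22409 and 14316 bases. The vitamin D receptor binds repeats of a hexamer, and AGGTCA and GGTTCA were searched on both strands as its usual forms. AGGTCA was found in 1 of 39 promoters, that of Baz1b, which is 2.56% beside 12.5% of the protein-coding promoters. GGTTCA was found in 3 of 39, those of Chd6, Hdac2 and Pbrm1, which is 7.69% beside 8.16%. None of the 4 printed windows holds either word.

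The estimated counts summed to 62284598 in untreated cells, 73636342 with VD3 and 73499639 in the combined pool, and the 49 members took 0.981%, 0.941% and 0.824% of them. Taken from the deposited variance, the standard deviation of the median member's count was 16.7%, 16.8% and 17.7% of that count. Values are in FPKM (fragments per kilobase of transcript, scaled to sequencing depth), and the ranges in brackets are the authors' confidence intervals, whose level is not given. The count per unit of FPKM did not always follow the length of the longest transcript. In the untreated pool it was 208 for Smarcd1 and 51.1 for Dpf2, with transcripts of 3307 and 3314 bases. An order of genes by FPKM can thus differ from an order by count per kilobase. The lower bound was 0 for 2, 4 and 13 members in these pools in the same order, so the combined pool was the least precise by FPKM. All 8 embryonic stem cell markers (Pou5f1, Sox2, Nanog, Esrrb, Zfp42, Klf4, Tfcp2l1 and Dppa5a) were above 1 FPKM in every pool and summed to 2355, 3783 and 4609 FPKM. Those sums rest largely on Pou5f1, at 1114, 2053 and 1832, and on Dppa5a, at 628, 959 and 2088, whose locus also names Gsta2. Klf4 was lower in both treated pools by FPKM, at 76.2, 62.6 and 63.0, with overlapping intervals. Its counts were 10930, 10774 and 9160. Zfp42 was at 26.4, 26.7 and 30.9 FPKM. Of 12 fibroblast markers for the feeder cells, 4, 4 and 2 reached 1 FPKM, 1, 2 and 2 were listed at 0, and the sum was 16.2, 23.6 and 14.2 FPKM. Col1a1 was at 0.630, 0.657 and 0.412 FPKM, and Thy1, the highest, at 7.46, 13.8 and 9.41. Their part in the values of the members was not tested. In pooled RNA, fewer cells of a type and less RNA per cell cannot be told apart.

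Among the levels, the median member stood at 53.1 FPKM in the untreated pool, 45.3 with VD3 and 46.4 in the combined pool, beside 17.0, 18.2 and 18.4 for 11399 expressed protein-coding genes. Of the 49, 9, 13 and 17 members reached 100 FPKM, and 5, 6 and 7 were below 10. Ruvbl2, an AAA+ ATPase of the INO80 family, was the highest in each pool, at 898 FPKM (45.6 to 1750), 1269 (0 to 2540) and 1832 (0 to 3926). Smarca2 was the lowest in the untreated pool at 3.52 FPKM, and Smarca1 the lowest in the others at 2.32 and 2.42. In the order of levels, all 48 pairs of neighbours had overlapping intervals in each pool, so no neighbours can be set apart.

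**Figure D1:**
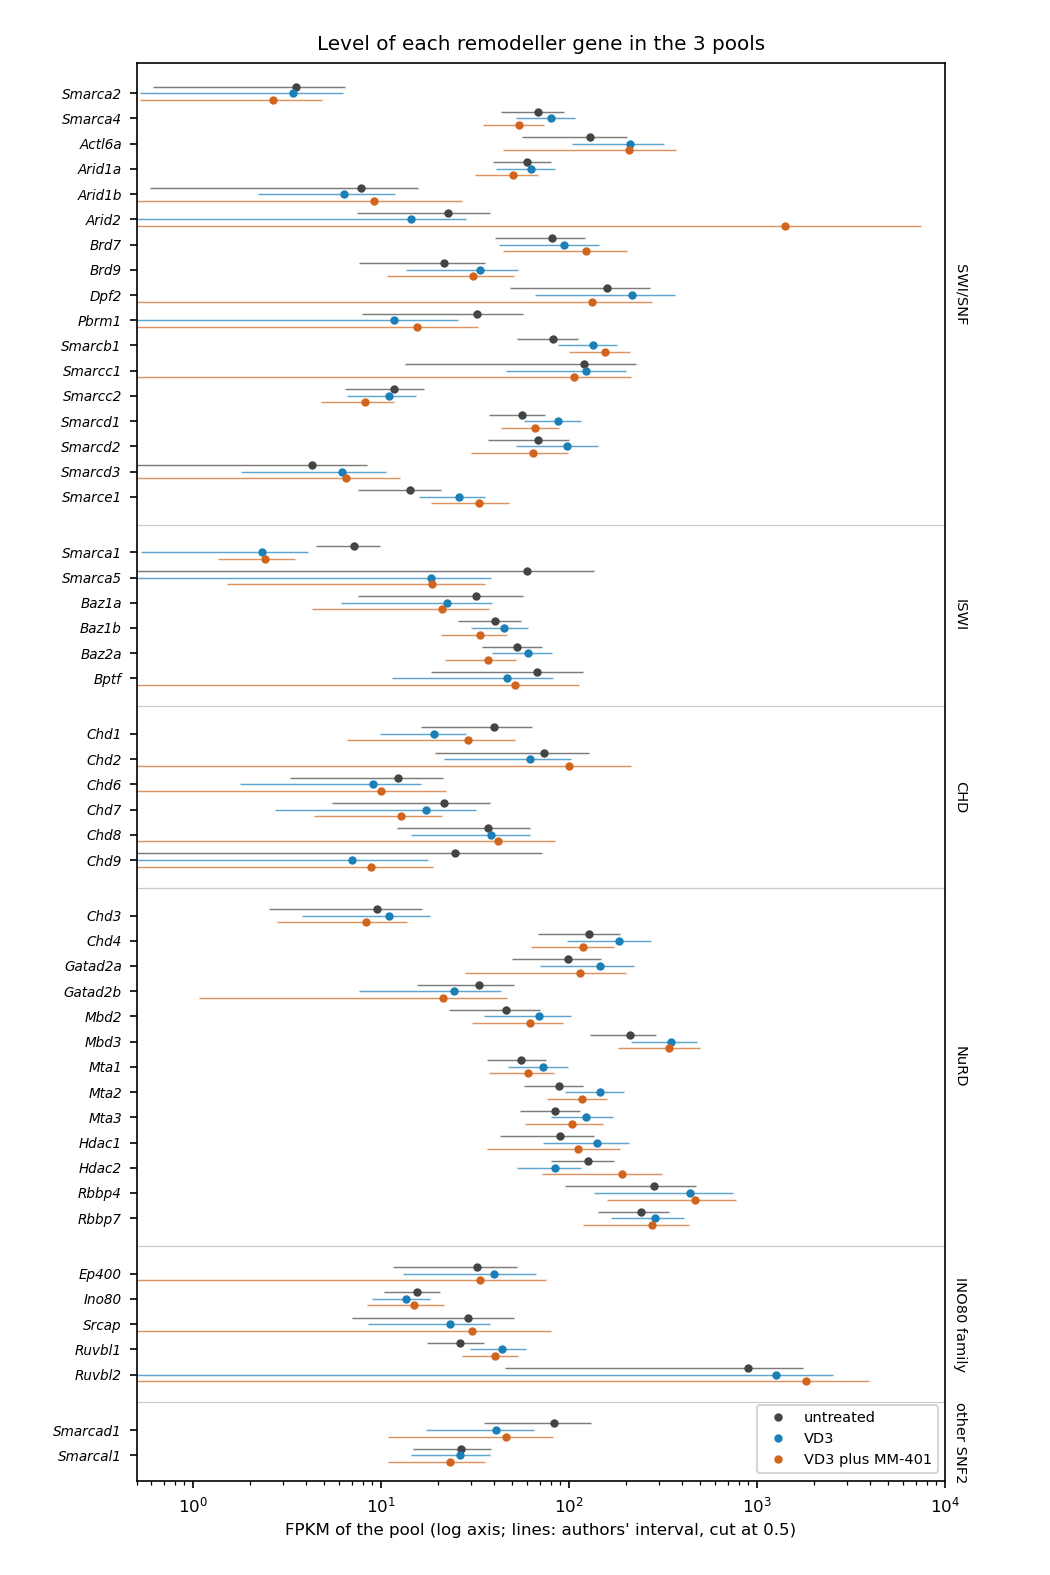
Level of each of the 49 genes in FPKM (log axis) in the 3 pools, grouped by complex; points are the deposited values and lines the authors' intervals, cut at 0.5 FPKM. Ruvbl2 is the highest gene in each pool; Smarca1 is the only gene whose untreated interval (4.49 to 9.84 FPKM) lies clear of both others, and Arid2 stands far to the right at 1406 FPKM in the combined pool (VD3 plus MM-401 in the legend).

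The SWI/SNF catalytic subunits were strongly unequal. Smarca4, the ATPase BRG1, was at 68.7 FPKM in untreated cells (43.3 to 94.1), 79.7 with VD3 (52.2 to 107) and 54.0 in the combined pool (34.7 to 73.3). Its paralog Smarca2, the ATPase BRM, was at 3.52, 3.38 and 2.68 FPKM, with estimated counts of 296, 307 and 343. Smarca4 thus exceeded Smarca2 by 19.5-fold, 23.6-fold and 20.2-fold, with intervals apart in each pool. By count per kilobase of the longest annotated transcript the ratios were 74.9, 86.4 and 53.6.

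The core scaffold subunits followed the same pattern of a major and a minor paralog. Smarcc1, which holds the complex together, was at 120, 123 and 106 FPKM, and Smarcc2 at 11.7, 10.99 and 8.25, ratios of 10.2, 11.2 and 12.8, with intervals apart with VD3 and overlapping in the other pools. Actl6a, an actin-related subunit of proliferating cells, was at 130, 212 and 209 FPKM. Its neuronal paralog Actl6b, from the companion list described further on, had 2.76, 0 and 9.56 counts and was at 0.0373, 0 and 0.129 FPKM, too few for a ratio. Smarcd1, an accessory subunit, was at 56.1, 87.2 and 66.0 FPKM, and Smarcd3, known from heart and muscle, at 4.29, 6.18 and 6.52. Smarcd2 was at 68.6, 97.3 and 64.7 FPKM, so that Smarcd1 to Smarcd2 was 0.818, 0.896 and 1.02 by FPKM but 1.87, 1.91 and 1.81 by count per kilobase, and their order depends on the measure.

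The subunits that set the type of SWI/SNF complex were measured as well. Arid1a, a DNA-binding subunit of the canonical complex, was at 59.6, 62.4 and 50.1 FPKM and its paralog Arid1b at 7.77, 6.32 and 9.13. Dpf2, a PHD-finger subunit of that complex, was at 159, 217 and 132 FPKM. Brd9, which marks the non-canonical complex, was at 21.6, 33.7 and 30.8 FPKM, and Brd7, of the PBAF complex, at 81.2, 93.5 and 124. Smarcb1, a core subunit that contacts the nucleosome, was at 81.9, 134 and 155 FPKM, higher than untreated by 0.70 and 0.91 on the log2 scale of FPKM + 1 with overlapping intervals. Smarce1, an HMG-box subunit, was at 14.2 FPKM (7.58 to 20.8), 25.9 (15.9 to 35.9) and 33.0 (18.3 to 47.7), and its counts were 2832, 4751 and 5619. Untreated was the lowest pool for both subunits, and the untreated interval of Smarce1 reached past the lower bounds of both treated intervals.

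Pbrm1, the bromodomain scaffold of PBAF, was lower in the treated pools. Its FPKM was 32.3 (7.94 to 56.7), 11.7 (0 to 25.5) and 15.6 (0 to 32.7), and the counts were 14672, 3851 and 5388. The log2 differences from untreated were -1.39 and -1.01 by FPKM, and -1.93 ± 0.85 and -1.45 ± 0.85 by count, where the error is a standard error from the deposited variance. Its locus in the tables is shared with the protein-coding gene Glt8d1, so the count of Pbrm1 is uncertain. Arid2, the DNA-binding subunit of PBAF on chromosome 15, was at 22.7 FPKM (7.48 to 38.0), 14.4 (0.473 to 28.3) and 1406 (0 to 7414). Its counts were 13055, 8353 and 11371, which is lower than untreated by count in both treated pools. The count per unit of FPKM was 574, 581 and 8.09, so the 1406 FPKM are not matched by counts. The locus of Arid2 also names Gm25397, a small RNA, and the share of either in the value was not tested.

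The ISWI family gave the member that met the criterion. Smarca1, an ISWI ATPase on the X chromosome (47809368 to 47892974, GENCODE vM21 on GRCm38), was at 7.16 FPKM in untreated cells (4.49 to 9.84), 2.32 with VD3 (0.531 to 4.10) and 2.42 in the combined pool (1.35 to 3.49). Its counts were 1880 ± 327, 478 ± 99.4 and 513 ± 104, with the authors' model standard deviation. Untreated was the high pool, and neither treated interval reached it. The level was 3.09-fold and 2.96-fold lower by FPKM and 3.94-fold and 3.67-fold lower by count. Smarca1 passed the minimum of 5 FPKM only through the untreated pool. Adjusted for transcript length and GC content its log2 differences were -0.32 and -0.59, short of 2-fold, and it was also short of 2-fold with a pseudocount of 5, at -0.73 and -0.71.

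Smarca5, the main ISWI ATPase of stem cells on chromosome 8 (80698507 to 80739497), was at 59.5 FPKM (0 to 135), 18.5 (0 to 38.7) and 18.6 (1.51 to 35.7). Its counts were 8301, 2940 and 5502, on a locus that also names Gm45872. By FPKM it was 3.22-fold and 3.20-fold lower than untreated, and by count 2.82-fold and 1.51-fold lower, so the value in the combined pool depends on the measure. The ratio of Smarca5 to Smarca1 was 8.31, 7.98 and 7.68 by FPKM and 3.47, 4.83 and 8.42 by count per kilobase. Among the partners of these ATPases, Bptf, of the NURF complex, was at 67.8, 46.7 and 51.8 FPKM, and Baz1a, of the ACF complex, at 32.1, 22.4 and 21.0. The locus of Baz1a also names the protein-coding gene Gm20403. Baz1b, of the WICH complex, was at 40.5, 45.3 and 33.7 FPKM, and Baz2a, of the nucleolar NoRC complex, at 53.1, 60.2 and 36.9. None of the 4 partners had intervals apart.

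The CHD remodellers outside NuRD were near or below untreated with VD3. Chd9 (chromosome 8, 90828352 to 91054516) was at 24.6 FPKM (0 to 71.5), 6.97 (0 to 17.8) and 8.87 (0 to 18.9), with counts of 10468, 2259 and 3236. Its log2 differences from untreated were -1.68 and -1.38 by FPKM and -2.21 ± 0.34 and -1.69 ± 0.36 by count, the lowest count differences among members in the VD3 comparison. Chd1, which binds active promoters and is known to keep stem cell chromatin open, was at 39.8 FPKM (16.4 to 63.2), 19.0 (9.83 to 28.2) and 29.0 (6.56 to 51.4), with counts of 13544, 6210 and 8128. A second locus named Chd1, on chromosome 17 at 17370078 to 17395303, was at 92.4, 59.7 and 53.9 FPKM. It does not overlap Chd1 in GENCODE vM21 and lies over Riok2, and it was left out. Chd2, a relative of Chd1, was at 73.7, 62.0 and 100.0 FPKM. Chd6 was at 12.3, 9.06 and 10.1 FPKM, and Chd7, which acts at enhancers, at 21.7, 17.4 and 12.7. Chd8, a repressor of beta-catenin target genes, was at 37.2, 38.4 and 42.0 FPKM.

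NuRD transcripts stood high. Chd4, its main ATPase, was at 127 FPKM (68.2 to 186), 185 (97.2 to 273) and 118 (62.5 to 174), and Chd3, its alternative ATPase, at 9.53, 11.03 and 8.28. Mbd3, the methyl-CpG-binding-domain subunit needed for NuRD assembly, was at 210, 348 and 339 FPKM, and Mbd2, the methyl-CpG-binding alternative, at 46.5, 68.8 and 61.8. The ratio of Mbd3 to Mbd2 was 4.51, 5.06 and 5.49 with intervals apart in every pool. The histone chaperone Rbbp4 was at 284, 440 and 467 FPKM and its paralog Rbbp7 at 242, 288 and 277. Mta1, Mta2 and Mta3, which join the deacetylases to the rest, were at 55.8, 73.1 and 60.2 FPKM, at 88.2, 146 and 118, and at 83.7, 124 and 104. Gatad2a, a zinc-finger linker to the ATPase, was at 98.7, 145 and 114 FPKM, and Gatad2b at 33.4, 24.4 and 21.4, so their ratio was 2.96 untreated, 5.96 with VD3 and 5.33 in the combined pool.

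By FPKM, the ratio of the NuRD deacetylases moved most between pools, leaving aside Arid1a to Arid2, which the FPKM of Arid2 sets, and the barely counted Actl6b. Hdac2 was at 126 FPKM in untreated cells (80.1 to 173), 84.5 with VD3 (53.1 to 116) and 192 in the combined pool (71.4 to 312). Hdac1 was at 89.6 (43.0 to 136), 141 (72.4 to 209) and 112 (36.7 to 187). The ratio of Hdac1 to Hdac2 was 0.709, 1.67 and 0.584 by FPKM and 0.978, 2.05 and 1.24 by count per kilobase, with overlapping intervals in every pool. VD3 was the pool with the highest ratio by both measures.

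**Figure D2:**
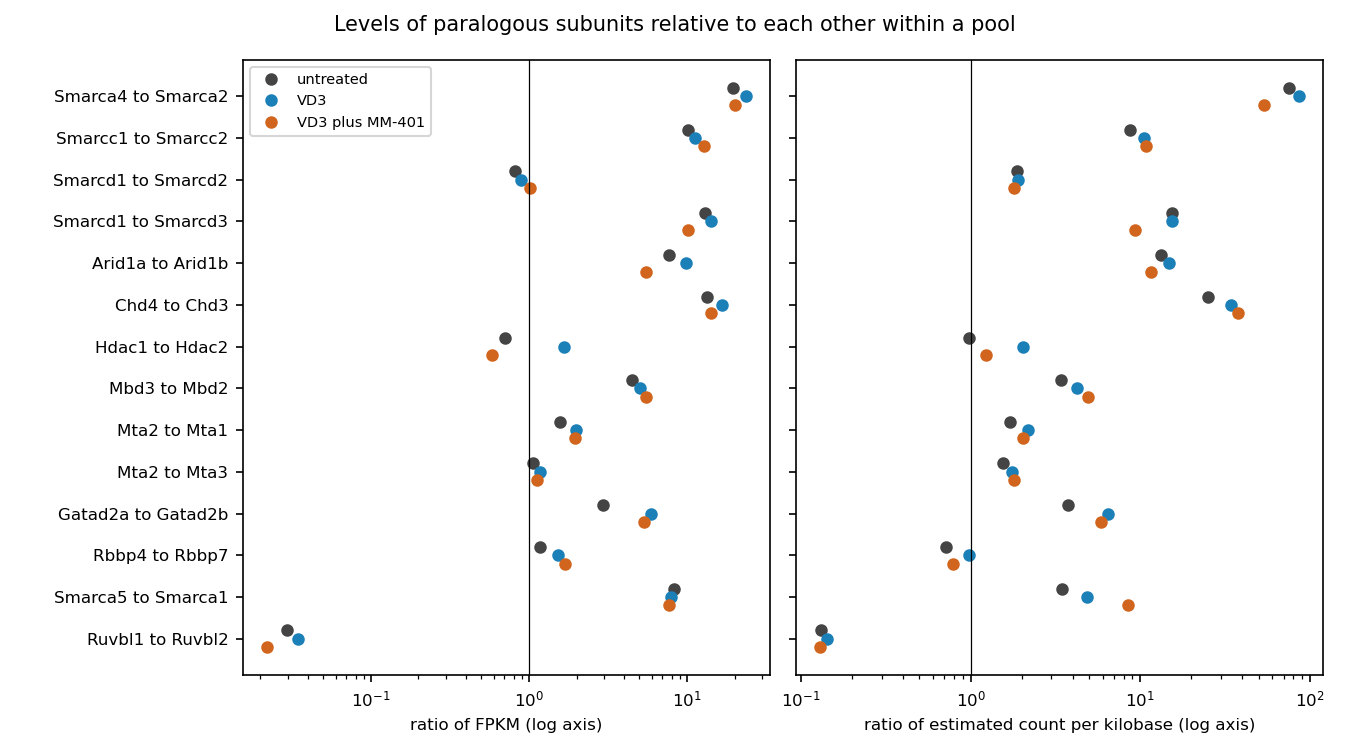
Ratio of paralogous subunits within each pool by FPKM (left) and by estimated count per kilobase (right), both on log axes, with 1 point per pool and no error; Actl6a to Actl6b and Arid1a to Arid2 are not drawn. Smarca4 to Smarca2 lies between 19.5 and 23.6 by FPKM in all pools, and Hdac1 to Hdac2 crosses 1 between them.

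The INO80 family held a strongly unequal pair. Ino80, its founding ATPase, was at 15.5, 13.6 and 15.0 FPKM. Ep400, the ATPase of the TIP60 complex, was at 32.3, 39.9 and 33.8 FPKM, and Srcap, which deposits H2A.Z, at 29.1, 23.3 and 30.5. The locus of Srcap also names the protein-coding genes Tmem265 and Gm42715. Ruvbl1, the partner of Ruvbl2 in a shared ring, was at 26.4, 44.2 and 40.3 FPKM, against 898, 1269 and 1832 for Ruvbl2. Ruvbl2 exceeded Ruvbl1 by 34.0-fold, 28.7-fold and 45.5-fold by FPKM and by 7.62-fold, 6.97-fold and 7.70-fold by count per kilobase, so the size of the gap depends on the measure. Their FPKM intervals were apart in the untreated pool and overlapped with VD3 and in the combined pool. Outside the named complexes, Smarcad1, which acts on heterochromatin, was at 83.0 FPKM (35.5 to 131), 41.1 (17.3 to 64.9) and 46.4 (10.9 to 81.9), with counts of 16539, 5588 and 5952. Smarcal1, an annealing helicase of stalled replication forks, was at 26.7, 26.2 and 23.2 FPKM.

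VD3 was compared with no treatment to ask which remodeller transcripts differ after 5 days of the hormone. A gene counted as higher or lower at a 2-fold difference on the FPKM + 1 scale with the authors' intervals apart, among genes of at least 5 FPKM in the higher pool. Of the 49 members 48 reached that minimum, and the exception was Smarca2. Smarca1 was lower and no member was higher, where 4.22% of 10909 genes were lower and 0.926% higher. Of 9183 protein-coding genes 3.91% were lower and 0.632% higher. At 2-fold alone 5 members were lower (Smarca1, Smarca5, Pbrm1, Chd1 and Chd9) and 0 higher, where 8.71% of all genes were lower and 3.54% higher. By count at 2-fold with the ranges of 2 standard deviations apart, 5 were lower (Smarca1, Smarca5, Smarcad1, Chd1 and Chd9), where 7.01% of all genes were lower, and 0 were higher, where 1.01% were higher. Smarcad1 was at -0.997 by FPKM, just short of 2-fold, and at -1.57 ± 0.33 by count. The members' counts are near what these shares give for 48 genes. The median member was 0.18 higher with VD3 on the log2 scale, beside 0.30 over all genes of at least 1 FPKM on average.

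By role, the 17 ATPases of the SNF2 type had a median difference of -0.25 and the 32 other subunits one of 0.44. The median gene of the comparison was 0.36 higher, and 16 of the 17 ATPases lay below it, the exception being Chd4 at 0.54. Of the other subunits 18 lay above it and 14 below. By complex the medians were 0.55 for NuRD, where 9 of 13 members lay above the median gene, 0.30 for the INO80 family, 0.21 for SWI/SNF, -0.35 for CHD and -0.52 for ISWI. ATPase transcripts are long, with a median of 7261 bases against 3279 for the other subunits, and the difference moved with length and GC content. Adjusted differences came from a fit over all expressed protein-coding genes, which also takes out the shift common to those genes. The median protein-coding gene stood at 0.30 before the fit and at 0.03 after it. Medians before and after are thus not on the same footing. After adjustment for length and GC content, the median was -0.24 for the ATPases, 14 of 17 of them below 0. For the other subunits it was 0.03, with 15 of 32 below 0. By complex the adjusted medians were 0.17 for NuRD, -0.04 for the INO80 family, -0.03 for SWI/SNF, -0.28 for CHD and -0.28 for ISWI. The adjusted difference of Chd9 was -1.12, of Smarca5 -0.75, of Smarcad1 -0.24 and of Rbbp4 0.97.

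The trend with composition was visible within the members. Across the 49 genes, which are not replicates and were measured in the same pools, the Spearman correlation of the VD3 difference was 0.604 with GC content and -0.693 with length, beside 0.565 and -0.403 over 9181 protein-coding genes. The 16 shortest members (1660 to 3135 bases) had a median difference of 0.59, and 14 of them lay above the median gene. The 17 longest (6697 to 12036 bases) had a median of -0.30, and 1 of them lay above it. The 16 members of lowest GC content, from 39.5% to 48.4%, had a median of -0.54.

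**Figure D3:**
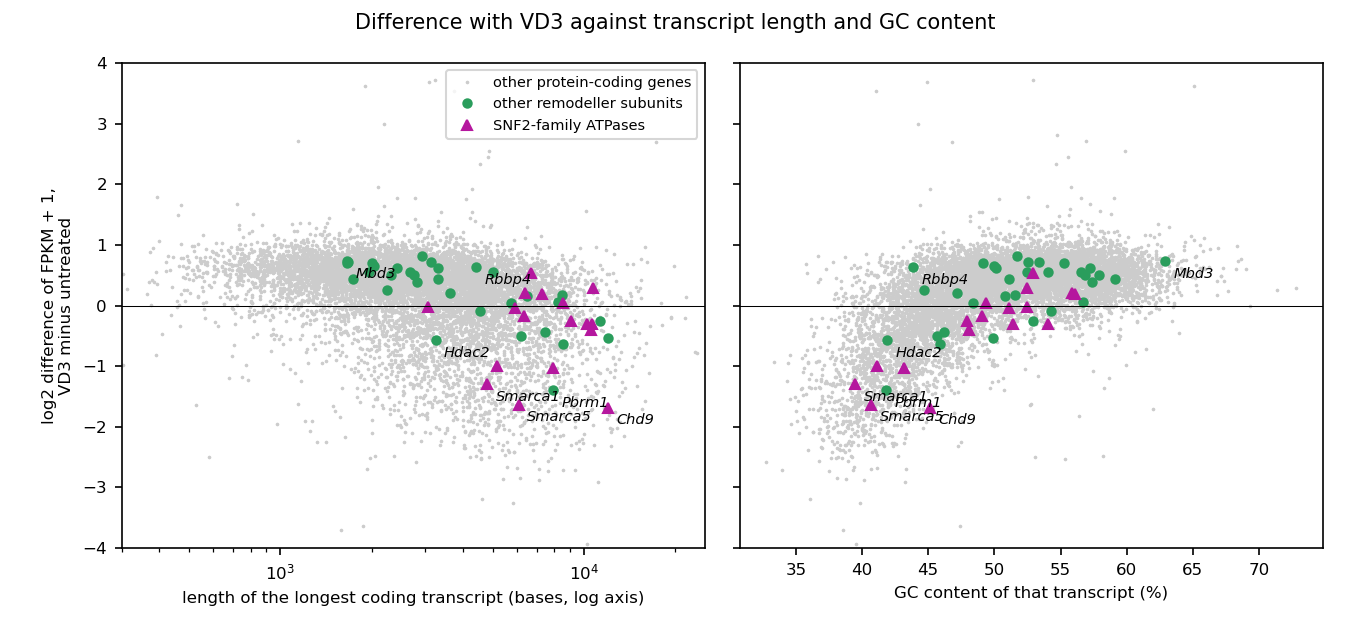
Difference with VD3 (log2 of FPKM + 1, VD3 minus untreated) against the length of the longest coding transcript (left, log axis) and its GC content (right); grey points are other protein-coding genes, green circles the 32 other subunits and magenta triangles the 17 ATPases. Long and GC-poor members lie low, as do other genes of that composition, with Smarca1, Smarca5 and Chd9 at -1.30, -1.63 and -1.68.

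The combined pool was set against the same untreated pool, so this comparison shares its reference with the one above. Smarca1 was lower and no member was higher, where 2.68% of 10964 genes were lower and 4.26% higher. Of 9205 protein-coding genes 2.16% were lower and 3.25% higher. At 2-fold alone 4 members were lower (Smarca1, Smarca5, Pbrm1 and Chd9), where 6.24% of all genes were lower, and 3 were higher (Smarce1, Arid2 and Ruvbl2), where 13.4% were higher. By count with ranges apart 3 were lower (Smarca1, Smarcad1 and Chd9), where 4.1% of all genes were lower, and 0 were higher, where 5.23% were higher. Smarce1 was 2.33-fold higher by FPKM and stood at 0.99 ± 0.34 on the log2 scale by count. Ruvbl2 was 2.04-fold higher by FPKM and at 0.65 ± 0.41 by count.

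The median member differed by 0.06 by FPKM and by -0.09 by count, beside 0.21 over all genes by FPKM. The ATPases had a median of -0.26 and the other subunits one of 0.27. Of the 17 ATPases 16 lay below the median gene, which was 0.27 higher, and the exception was Chd2 at 0.44 by FPKM and -0.19 ± 0.35 by count. By complex the medians were 0.31 for NuRD, 0.21 for SWI/SNF, 0.06 for the INO80 family, -0.35 for CHD and -0.55 for ISWI. After the adjustment the medians were -0.23 for the ATPases, 10 of 17 below 0, and -0.08 for the other subunits, 18 of 32 below 0. By complex the adjusted medians were -0.10 for NuRD, -0.11 for SWI/SNF, 0.17 for the INO80 family, 0.04 for CHD and -0.41 for ISWI. The signs for NuRD, SWI/SNF and CHD changed, but the fit also takes out the shift common to the fitted genes. The median protein-coding gene stood at 0.21 before it and at -0.01 after it. SWI/SNF at 0.21 already lay below the median gene at 0.27. A change of sign therefore cannot be assigned to length and GC content alone.

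**Figure D4:**
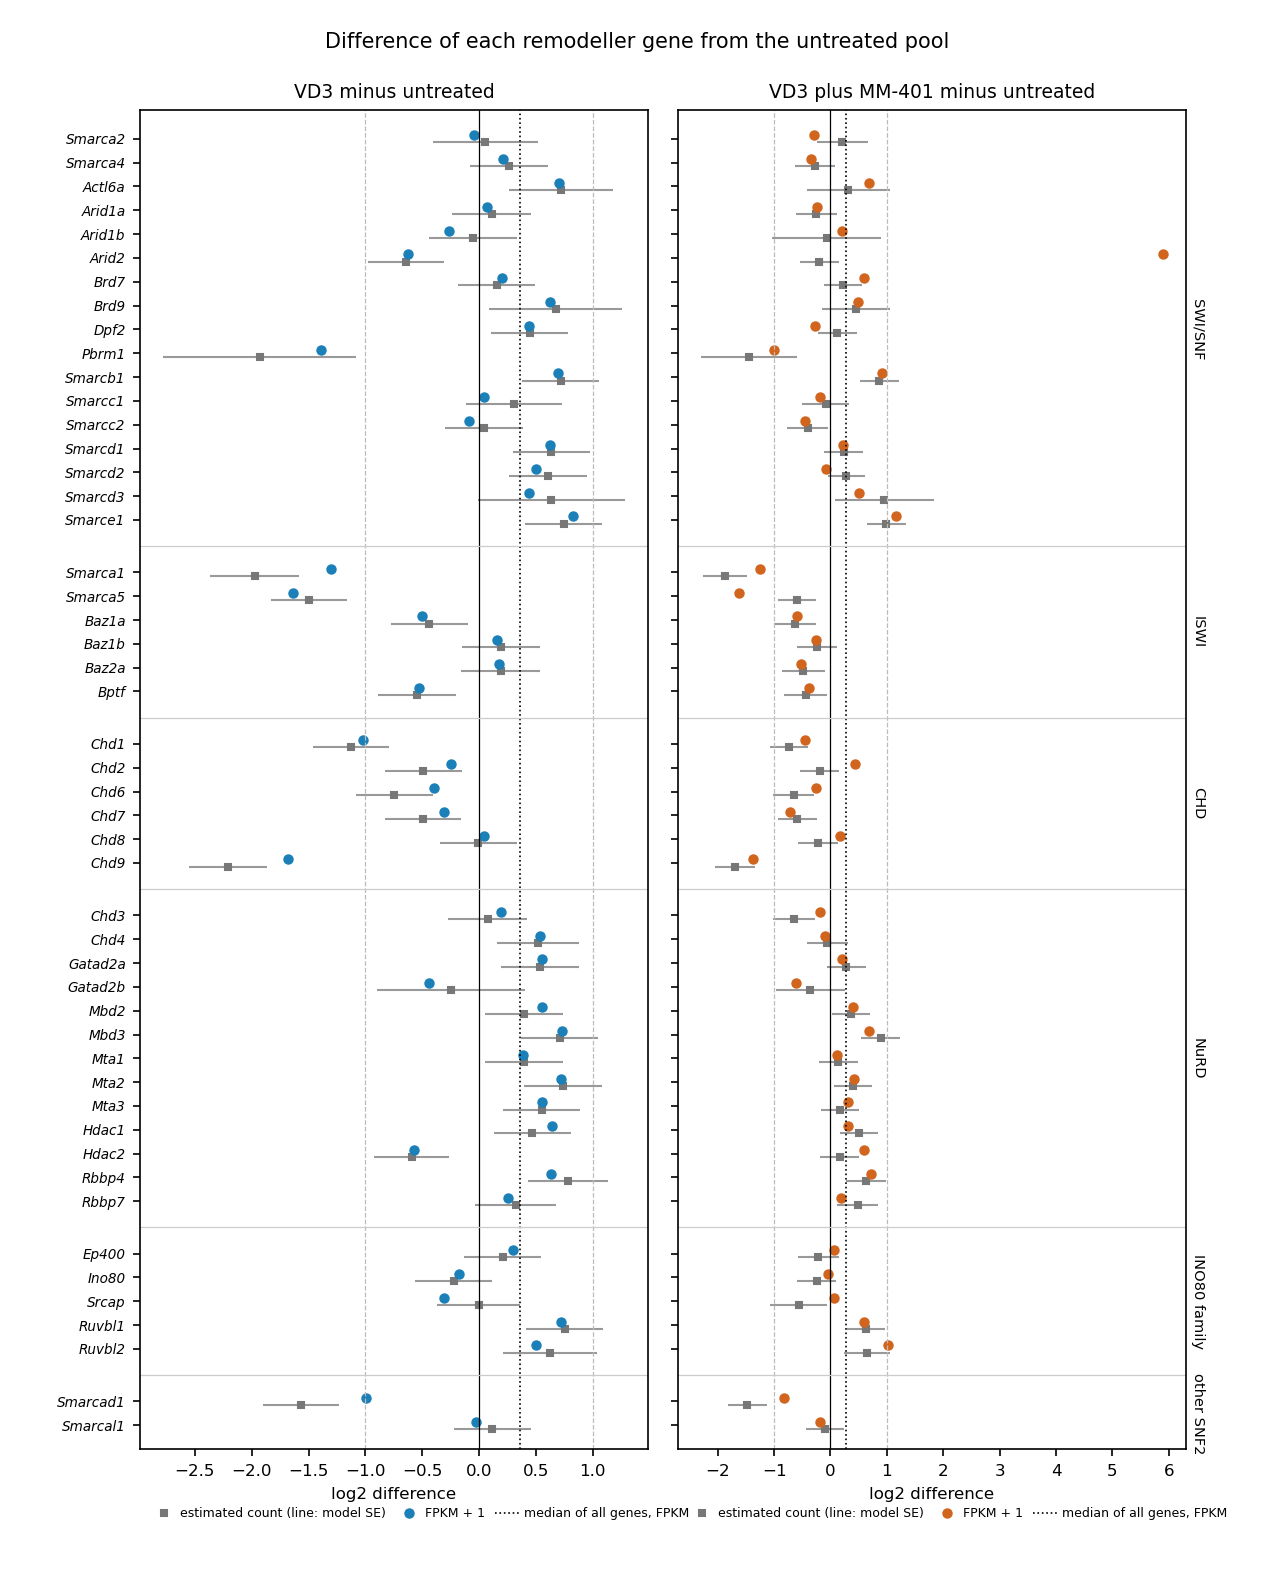
Log2 difference of each gene from the untreated pool, with VD3 (left) and in the combined pool (right, VD3 plus MM-401); coloured circles are FPKM + 1, grey squares estimated counts with the model standard error, the dotted line is the median of all genes and dashed lines mark 2-fold. Smarca1, Smarca5, Chd9 and Pbrm1 lie beyond 2-fold lower by FPKM in both panels, and Arid2 lies at 5.89 by FPKM but at -0.20 by count in the right panel.

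The combined pool was also set against VD3 alone, which addresses what the inhibitor added. No member was higher or lower by the criterion among the 47 with enough FPKM, where 0.831% of 10715 genes were higher and 0.541% lower. Of 9004 protein-coding genes 0.333% were higher and 0.122% lower. At 2-fold alone Hdac2 and Arid2 were higher and 0 members lower, where 4.67% of all genes were higher and 2.02% lower. Hdac2 was 2.27-fold higher by FPKM with overlapping intervals, and 0.76 ± 0.34 higher on the log2 scale by count. By count at 2-fold with ranges apart, 0 members were higher or lower, where 0.607% of all genes were higher and 0.103% lower. Baz2a, the NoRC subunit, had a log2 difference of -0.69 by FPKM and -0.68 ± 0.38 by count, and Chd4 of -0.64 and -0.58 ± 0.37. Smarca5 was at 0.01 by FPKM and 0.90 ± 0.34 by count.

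Of the NuRD members 11 of 13 lay below the median gene of this comparison, with a median of -0.25 by FPKM and -0.15 by count. The CHD members outside NuRD had a median of 0.22 by FPKM and 0.19 by count, and the ATPases one of 0.04. The comparison shares its VD3 pool with the comparison of VD3 and untreated cells, in which NuRD had the highest median of the complexes.

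FPKM and count gave the same sign for 45, 40 and 40 of the 49 members in the 3 comparisons in the order given. The members where they parted most were Arid2, Smarca5 and Srcap. Srcap was at 0.06 by FPKM and -0.57 ± 0.50 by count in the combined pool against untreated.

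**Figure D5:**
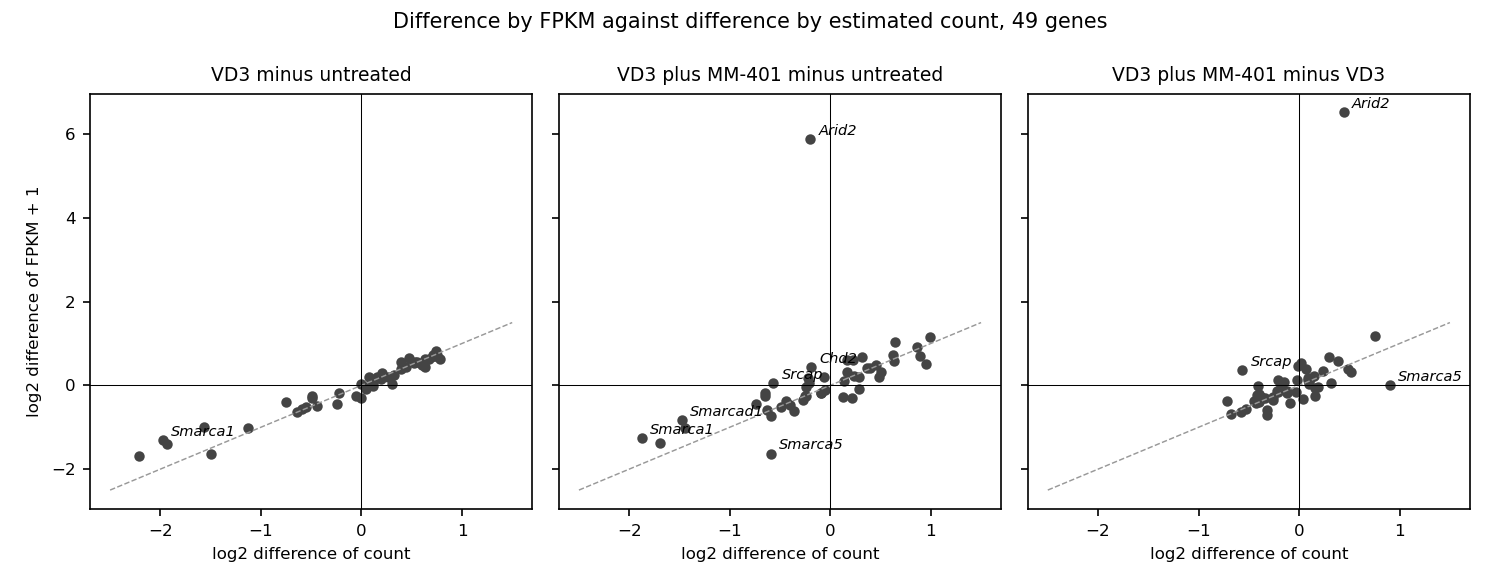
Log2 difference by FPKM + 1 against log2 difference by estimated count for the 49 genes in each comparison, with the dashed line of equality. With VD3 the points lie near the line; in both comparisons with the combined pool, Arid2 stands far above it, at 5.89 and 6.52 by FPKM.

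The 55 further subunits and remodellers of a companion list were measured for context, and 50 reached the minimum in the comparison of VD3 with untreated. There 3 were lower by the criterion and 0 higher, beside 4.22% and 0.926% of all genes. Mbtd1, a subunit of the TIP60 complex, was at 156 FPKM (79.7 to 231), 38.8 (20.9 to 56.7) and 46.6 (7.39 to 85.9). Hltf, a replication fork remodeller, was at 22.0, 6.60 and 17.4 FPKM, with counts of 4079, 1014 and 1565. In the combined pool it was 1.26-fold below untreated by FPKM and 2.61-fold below by count, so that value depends on the measure. Shprh, its relative, was at 15.9, 5.16 and 6.77 FPKM. In the combined pool 0 were higher or lower against either other pool. The median difference was 0.24, 0.12 and -0.07 in the 3 comparisons. Paralogs of members on that list were low to moderate. Chd5, a neural relative of Chd3 and Chd4, was at 1.95, 3.78 and 2.21 FPKM, Dpf3 at 0.431, 0.599 and 1.08, Dpf1 at 17.2, 21.1 and 15.7, and Baz2b at 9.82, 7.47 and 8.59.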

How the data were processed

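RNA was sequenced from mouse embryonic stem cells in 3 groups of 2 libraries. Build mm10 and the tools TopHat2 2.1.1, SAMtools 1.5 and Cufflinks 2.2.1 are named, without roles, per the submitters' processing notes, and how the authors set them is not given in the sources used here. Each deposited FPKM value has a lower and an upper confidence bound, per the file headers. The estimated count of each locus and its variance come from a further deposited table, per the file headers, and both tables hold 1 pooled column per group.

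Values were summed over loci that name a gene and overlap it in GENCODE vM21, which is on GRCm38 and thus on mm10 sequence. A locus naming exactly 1 protein-coding gene was given to it. Left out were 14 loci whose status was not valid in all pools. Of the members, 10 share a locus with another named gene, 3 of them with another protein-coding gene. No source says that counting used strand, so reads of overlapping or antisense genes are not separable.

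Differences are log2(FPKM + 1) of a pool minus that of another, a scale that understates low genes. A call required 5 FPKM or more in the higher pool and a 2-fold difference with intervals apart, and medians took genes of at least 1 FPKM on average. Counts were compared as deposited with a pseudocount of 1, since the median ratio of FPKM to count between pools was 1. Adjusted differences are residuals of a quadratic fit in GC content and log2 length of the longest coding transcript. The fit has an intercept, so the shift common to the fitted genes is taken out as well. No p-value is given, because each group has 1 column. The calculations used Python 3.11.15, numpy 2.4.6, pandas 2.3.3 and scipy 1.17.1, and were tested on simulated data. The members, the companion list and the markers were chosen with earlier results of these data known. Every member is named with its levels; those past a call or a 2-fold difference, the ATPases and the paralog pairs whose ratio moved most are given in more detail, as are companions past a call and paralogs of members. The alternatives were other pseudocounts, filters, call rules, scalings, measures and sets of loci; 2 of them, unscaled counts and loci outside the gene, were added after seeing the data.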

Additional observations from a re-analysis of the deposited data

How the results depend on the processing

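No paired analysis was possible because the deposited columns are pooled over the 2 libraries of a group, and for the same reason no library could be left out. Smarca1, the member past the criterion, kept its sign under the alternatives that were run. The number of members lower with VD3 was 1 by the main criterion, 5 at a 2-fold difference alone, 5 by count as deposited, scaled to the pool total or scaled by the median of ratios, and 0 with a pseudocount of 5 or after adjustment for GC content and length. In the combined pool (VD3 plus MM-401) against untreated the lower count was 1, and it was 4 at 2-fold alone, 3 by each form of count and 0 with a pseudocount of 5 or after adjustment, while the higher count of 0 became 3 at 2-fold alone. In the combined pool against VD3 the higher count of 0 became 2 at 2-fold alone. The median member difference with VD3 was 0.18, and -0.18 when centred on the median gene. Scaled counts also put it below 0, at -0.05 by the pool total and -0.06 by the median of ratios. In the combined pool the median member difference was 0.06, and -0.33 by count scaled to the pool total. The cause of these moves was not tested. Of the counts and medians of this kind, 89 moved by less than 1.5 times or by less than the model error, and 16 moved by more. The scaled-count medians with VD3 are among the 89, so a sign can change within that limit. Of the differences and ratios of single members, 502 moved by less than that error and 150 by more. The spread between libraries is not known, and the wide intervals of the combined pool limit what can be said of single members.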
